A study of Mus musculus with 9 samples.

Results

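In the hippocampus of 3 groups of mice, transcripts were examined of 9 genes of the postsynaptic density: the scaffold genes Dlg4, Dlg2, Shank1, Shank2, Shank3, Homer1 and Dlgap1, and the kinase genes Camk2a and Camk2b. The members were taken by name, with no threshold on their values, but with earlier results of these data known. Below, counts of members are therefore set beside the shares of all genes as description only. All 9 were found among the 47643 genes of the deposited count matrix, of which 47224 had a GENCODE symbol. MRL/mpj mice were the controls. The lpr mutation of the death receptor gene Fas gives MRL/lpr mice a spontaneous lupus, and MRL/lpr+MSC mice are MRL/lpr mice that the labels describe as given mesenchymal stem cells, a group for which the source, dose and timing of the cells are not given in the sources used here. Each group had 3 libraries, with 1 hippocampal sample from a mouse at postnatal week 6 behind each, and both other groups were untreated. The labels give the strain of every library as C57BL/6, where the study's methods give MRL/MpJ and MRL/MpJ-Faslpr, and no library was labelled with a batch or date. Tissue came from mice perfused with PBS, and poly(A) RNA was sequenced.

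The postsynaptic density is a protein lattice beneath the membrane of excitatory synapses, in which membrane-associated guanylate kinases such as PSD-95 anchor glutamate receptors. SAPAP proteins link these to Shank proteins, and Homer proteins connect Shank to metabotropic receptors and internal calcium stores. CaMKII, the most abundant kinase of the density, is activated by calcium entering through NMDA receptors and is required for long-term potentiation in the hippocampus.

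Libraries held 19475804 to 26912031 counts, and no library repeated another of its group (chi-square per gene 10.7 or more). Fas differed little between MRL/lpr and MRL/mpj in total count, with 1.79 ± 0.482 and 1.82 ± 0.186 CPM (SD, n = 3; log2 fold change -0.03, adjusted p = 0.951 by limma voom), so it did not check the labels. In the study's own normalised table, of which only the first part was read here, the 3 columns named MRL/lpr equalled a constant times a library labelled MRL/lpr+MSC, within 1%, for 100% of 1980 to 1984 genes, and libraries labelled MRL/lpr did so for at most 5.06%. The groups are named by the labels below, and the comparisons of both groups with MRL/mpj are given side by side. If the names in that table held, the results of MRL/lpr and MRL/lpr+MSC against MRL/mpj would change places, and every direction between MRL/lpr+MSC and MRL/lpr would turn.

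Libraries also stood apart by markers of other cells and regions. The 10 striatal markers summed to 93.1 to 102 CPM in MRL/mpj, 147 to 206 CPM in MRL/lpr and 97.2 to 252 CPM in MRL/lpr+MSC, and the striatal factor Isl1 was at 0 in 2 MRL/mpj libraries and reached 18.4 CPM in MRL/lpr replicate 3. The 10 thalamic markers summed to 196 to 246 CPM in MRL/mpj, 246 to 683 CPM in MRL/lpr and 140.4 to 616 CPM in MRL/lpr+MSC. The most abundant of them, Zic1, was at 14.9 to 30.6 CPM in MRL/mpj, 61.5 to 350 CPM in MRL/lpr and 11.2 to 254 CPM in MRL/lpr+MSC. In MRL/lpr against MRL/mpj, 7 of the 10 had fold changes above 0 and 3 below, and 0 passed an adjusted p of 0.05. The 7 choroid plexus markers summed to 169 to 710.4 CPM in MRL/mpj but to 9563 CPM in MRL/lpr replicate 2 and 4833 CPM in MRL/lpr+MSC replicate 2. The 12 pan-neuronal markers summed to 5304 to 5724 CPM in MRL/mpj, 4485 to 5322 CPM in MRL/lpr and 4783 to 6227 CPM in MRL/lpr+MSC. In whole tissue, fewer cells of a type and less RNA per cell cannot be told apart, and the part of these markers in the results was not tested.

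All 9 genes were detected at 120.4 CPM or more in every library (counts scaled to library size after TMM, which allows each gene to be compared between libraries). In FPKM, the authors' length-scaled values that allow genes to be compared with one another, Camk2a stood highest, at 629.8 ± 105 (SD over 9 libraries), above 99.9% of all listed genes. Camk2b (182 ± 34.0) and Dlg4 (162 ± 15.8) came next and overlapped each other. Shank1 (46.2 ± 8.63), Shank3 (44.5 ± 4.55) and Dlgap1 (40.2 ± 11.3) formed an overlapping middle group, and the ranges of Dlgap1 and Dlg2 (28.1 ± 3.42) also met. Shank2 (17.4 ± 2.57) and Homer1 (14.7 ± 2.89) were lowest and overlapped. The same order held in CPM per kilobase of union exons, but there the level of Dlg4 was 61.1, because the FPKM of Dlg4 corresponded to a length of 5109 bases against 13251 bases of union exons.

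In MRL/lpr, all 9 genes had a lower fitted level than in MRL/mpj, and 4 of them, Dlg4, Shank1, Shank2 and Dlgap1, fell past the threshold (adjusted p under 0.05 over all genes tested). Of all 16697 genes tested, 4.68% fell and 4.44% rose. In 7 of the 9 genes every MRL/lpr library lay below every MRL/mpj library, which was so for 18.8% of all genes. The median log2 fold change was -0.37, against 0.03 over all genes tested, of which 45.9% were below 0. Of the 12 pan-neuronal markers, 11 were also below 0 (median -0.13), as were all 5 excitatory neuron markers described below (median -0.88). This direction was thus not particular to the members. The fall was largest in Dlgap1, the only member that also met the study's definition of differential expression (at least 1.5-fold and adjusted p under 0.05), met in either direction by 5.74% of genes. Each member is described below by its place in the density.

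**Figure D1:**
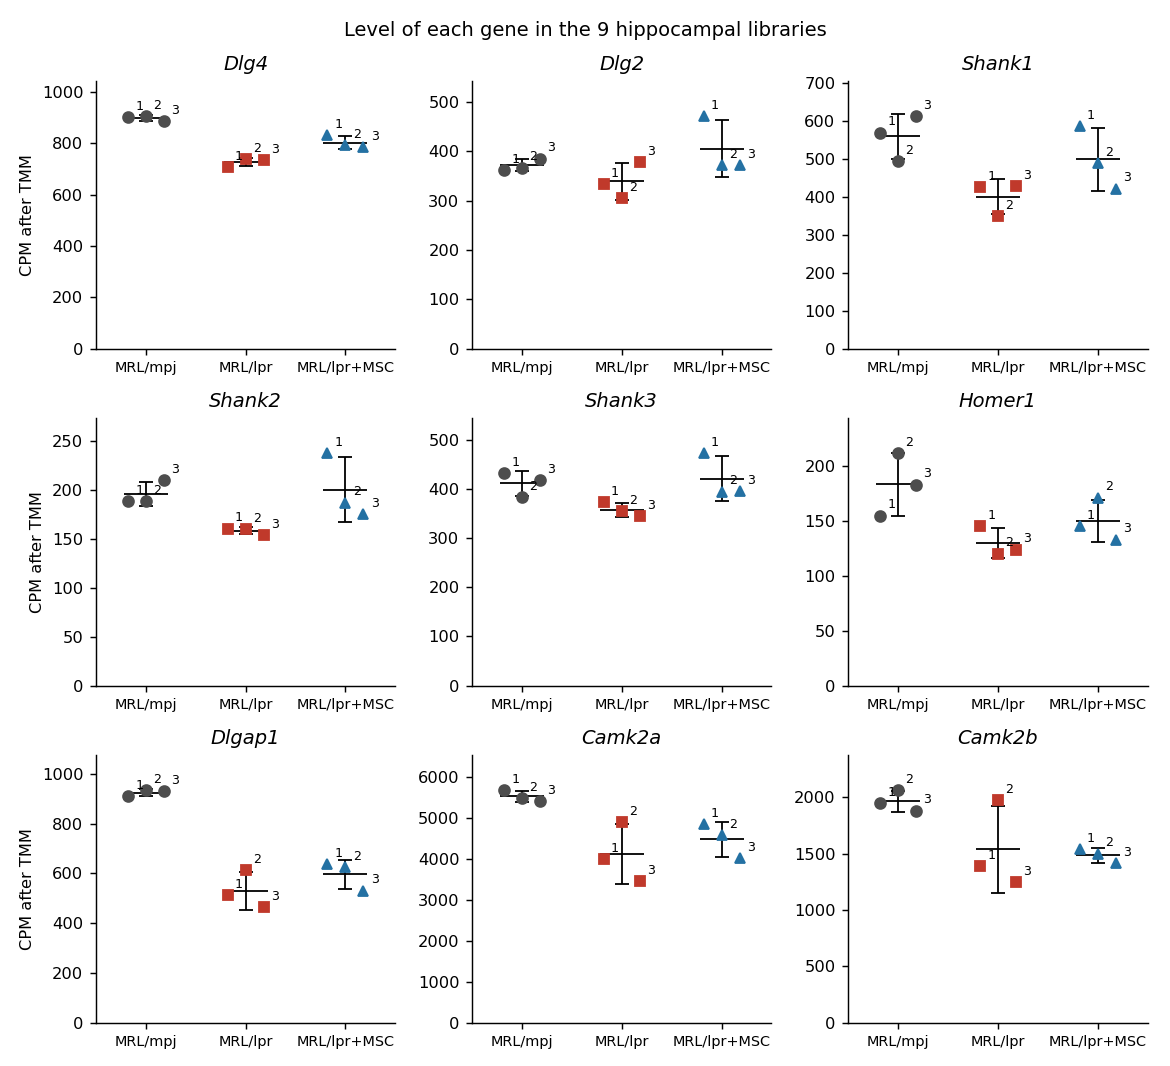
Level of each gene, in CPM after TMM on an axis from 0, in the 3 libraries of each group, with numbers marking the replicates, horizontal lines the mean and bars the SD. The MRL/lpr libraries lay below all MRL/mpj libraries in every panel but those of Dlg2 and Camk2b.

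Dlg4 (ENSMUSG00000020886; GRCm38 chromosome 11, 70016942 to 70047522, plus strand) encodes PSD-95, the core scaffold that anchors NMDA and AMPA receptor complexes. It was at 901, 907 and 885 CPM in MRL/mpj, at 708, 738 and 736 CPM in MRL/lpr and at 830.4, 794 and 784 CPM in MRL/lpr+MSC. Replicates were close together, and the 3 groups did not overlap, with MRL/lpr+MSC between the others. Dlg4 fell in MRL/lpr by 0.29 on the log2 scale (SE 0.060, adjusted p = 0.0344), a reduction of the mean CPM from 898 to 727.

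Dlg2 (ENSMUSG00000052572; chromosome 7, 90476672 to 92449247, plus strand) encodes PSD-93, the nearest relative of PSD-95 at these synapses. Its level was 362, 367 and 385 CPM in MRL/mpj and 333, 305 and 379 CPM in MRL/lpr, and the groups overlapped through MRL/lpr replicate 3. Levels in MRL/lpr+MSC were 471, 372 and 372 CPM, with replicate 1 above every other library. The log2 fold change in MRL/lpr was -0.13 (SE 0.090, adjusted p = 0.382), with a 95% interval from -0.34 to 0.09. Dlg2 shared 75 and 150 exonic bases with 2 predicted genes on its own strand.

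Dlgap1 (ENSMUSG00000003279; chromosome 17, 69969073 to 70821413, plus strand) encodes SAPAP1 (GKAP), which links PSD-95 to the Shank proteins. It was at 909, 934 and 929 CPM in MRL/mpj, 512, 614 and 465 CPM in MRL/lpr and 636, 624 and 531 CPM in MRL/lpr+MSC. Every library of both MRL/lpr groups lay below every MRL/mpj library, and the MRL/mpj libraries were the closest to each other. In MRL/lpr the log2 fold change was -0.80 (SE 0.110, adjusted p = 0.0117), with a 95% interval from -1.06 to -0.54. Its p ranked 248th of 16697, the lowest of the members. The log2 fold change in MRL/lpr+MSC was -0.64 (SE 0.089, adjusted p = 0.0111). The direction held under every other setting tried, but the fall did not pass a test against a 1.5-fold change (adjusted p = 0.741 in MRL/lpr).

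Shank1 (ENSMUSG00000038738; chromosome 7, 44310253 to 44360572, plus strand), Shank2 (ENSMUSG00000037541; chromosome 7, 144001930 to 144424490, plus strand) and Shank3 (ENSMUSG00000022623; chromosome 15, 89499623 to 89560261, plus strand) encode the master scaffolds that join SAPAP to Homer and the actin cytoskeleton. Shank1 was at 569, 495 and 613 CPM in MRL/mpj, 425, 349 and 429 CPM in MRL/lpr and 586, 488 and 421 CPM in MRL/lpr+MSC. It fell in MRL/lpr by 0.47 on the log2 scale (SE 0.112, adjusted p = 0.0482), and in MRL/lpr+MSC its libraries overlapped both other groups. Shank2 was at 189, 189 and 209.8 CPM in MRL/mpj, 161, 159.7 and 154 CPM in MRL/lpr and 238, 187 and 175 CPM in MRL/lpr+MSC. It fell in MRL/lpr by 0.30 on the log2 scale (SE 0.068, adjusted p = 0.0448), and its MRL/lpr libraries were the closest to each other. Shank3 was at 433, 383 and 418 CPM in MRL/mpj, 373, 354 and 345 CPM in MRL/lpr and 473, 395 and 395 CPM in MRL/lpr+MSC. Its MRL/lpr libraries lay below all others, but the log2 fold change of -0.19 (SE 0.070, adjusted p = 0.126) did not pass. Annotated genes on the opposite strand covered 339 exonic bases of Shank1 (1700008O03Rik) and 271 of Shank3 (Gm15609), 3.22% and 2.95% of their exons. Whether counting used strand is not given in the sources used here, so reads there may come from either gene.

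Homer1 (ENSMUSG00000007617; chromosome 13, 93299635 to 93405129, plus strand) encodes the Homer adaptor together with the short, activity-induced form Homer1a, which the gene counts did not separate. Its level was 155, 212 and 183 CPM in MRL/mpj, 146, 120.4 and 124 CPM in MRL/lpr and 146, 171 and 133 CPM in MRL/lpr+MSC. MRL/mpj varied most for this gene, and its lowest library was 155 CPM against 146 CPM for the highest of MRL/lpr. The log2 fold change in MRL/lpr of -0.48 (SE 0.132, adjusted p = 0.0672) was as large as that of Shank1 but did not pass.

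Camk2a (ENSMUSG00000024617; chromosome 18, 60925618 to 60988152, plus strand) and Camk2b (ENSMUSG00000057897; chromosome 11, 5969644 to 6066362, minus strand) encode the alpha and beta subunits of CaMKII, of which the beta subunit binds actin. Camk2a was at 5677, 5488 and 5406 CPM in MRL/mpj, 3995, 4891 and 3450.4 CPM in MRL/lpr and 4854, 4573 and 4018 CPM in MRL/lpr+MSC. Both MRL/lpr groups lay wholly below MRL/mpj, and MRL/lpr spread widely. The log2 fold change was -0.43 (SE 0.131, adjusted p = 0.0833) in MRL/lpr and -0.31 (SE 0.093, adjusted p = 0.106) in MRL/lpr+MSC. Camk2b was at 1948, 2062 and 1881 CPM in MRL/mpj, 1391, 1973 and 1245 CPM in MRL/lpr and 1542, 1500.4 and 1415 CPM in MRL/lpr+MSC. MRL/lpr replicate 2 alone was at the MRL/mpj level. The log2 fold change in MRL/lpr was -0.37 (SE 0.171, adjusted p = 0.201). Without MRL/lpr replicate 2, both subunits passed, Camk2a at -0.57 (adjusted p = 0.00894) and Camk2b at -0.58 (adjusted p = 0.00854). That library had the most choroid plexus RNA. It also had the highest summed level in MRL/lpr of the 5 excitatory neuron markers described below (1962 CPM). The part of either in these values was not tested. Without MRL/lpr replicate 3, which had the lowest level of both, Camk2a was at -0.30 (adjusted p = 0.115) and Camk2b at -0.23 (adjusted p = 0.369), and without replicate 1 neither passed.

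The count of 4 members changed with single libraries, as did the count over all genes, which was 1523 in either direction. Without MRL/lpr replicate 2 the counts were 6 members and 2623 genes, and without MRL/lpr replicate 3 they were 3 and 1807. Without MRL/lpr replicate 1 or any one of the MRL/mpj libraries, 0 members and 129 to 331 genes passed, with the fold change of every member still below 0. When the libraries were scaled to the pan-neuronal markers, the median of all genes shifted by 0.10 on the log2 scale, all 9 members still had lower levels, and 0 passed (Dlgap1 -0.70, adjusted p = 0.0613).

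In MRL/lpr+MSC against MRL/mpj, 2 of the 9 genes fell, Dlgap1 and Camk2b, against 2.56% of all 16196 genes tested, while 0 members and 2.33% of all genes rose. Of the members, 4 (Dlg4, Dlgap1, Camk2a and Camk2b) lay wholly below MRL/mpj, as did 13.6% of all genes, and only Dlgap1 met the definition of differential expression, which 3.36% of all genes met. Camk2b fell by 0.41 on the log2 scale (SE 0.078, adjusted p = 0.0334). The log2 fold change was -0.17 for Dlg4 (adjusted p = 0.188) and -0.18 for Shank1 (adjusted p = 0.469). Those of Dlg2, Shank2 and Shank3 were 0.11, 0.01 and 0.02, with adjusted p from 0.567 to 0.964, and the last 2 turned negative when the libraries were scaled to the pan-neuronal markers. The median over the 9 genes was -0.18, against 0.00 over all genes tested. Both comparisons share the MRL/mpj libraries.

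**Figure D2:**
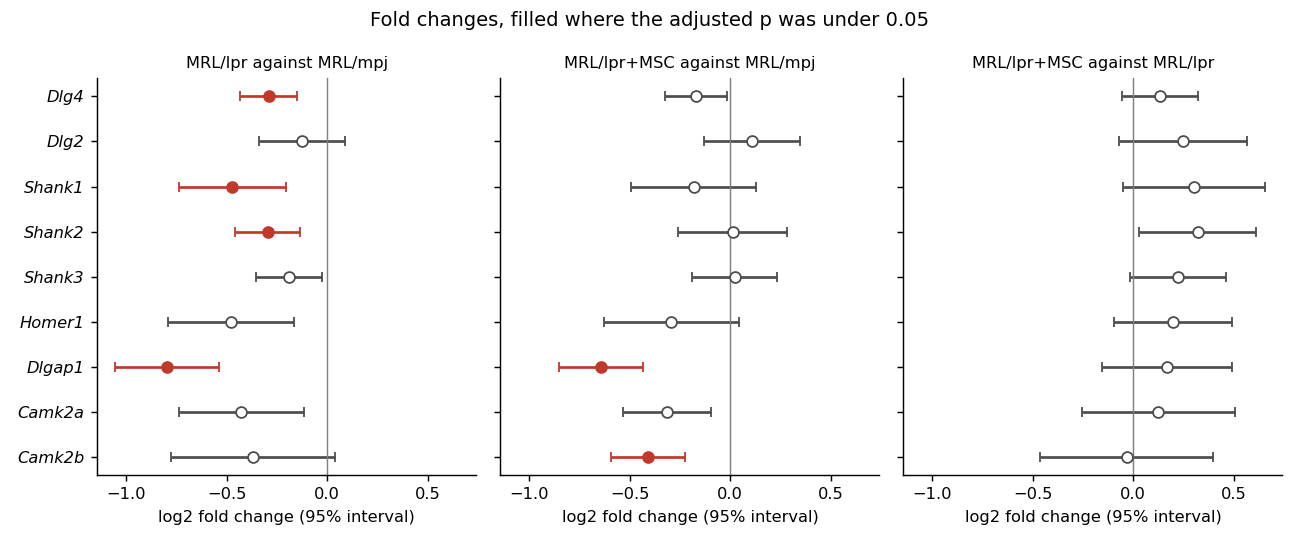
Log2 fold change of each gene (horizontal axis) with its 95% interval in the 3 comparisons, from limma voom, filled where the adjusted p was under 0.05. Dlgap1 had the lowest values against MRL/mpj, -0.80 and -0.64, and in the third panel no point was filled and 8 of 9 values were above 0.

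Between MRL/lpr+MSC and MRL/lpr, 0 members passed. Over all 16758 genes tested the limma voom test called 0 (0%), with 646 at an unadjusted p under 0.05. The other tests run, limma-trend, limma treat and library quality weights, also called 0. By the labels, the fitted level of 8 of the 9 genes was higher in MRL/lpr+MSC, while 52.6% of all genes tested were below 0. The median log2 fold change was 0.20, against -0.01 over all genes tested. Of the 12 pan-neuronal markers, 11 were also above 0, so this direction was not particular to the members. The libraries of the groups did not overlap for 3 members, Dlg4, Shank2 and Shank3, all higher in MRL/lpr+MSC, as were 4.51% of all genes. Shank2 had the lowest p of the members (log2 fold change 0.32, 95% interval from 0.03 to 0.61, unadjusted p = 0.0362, adjusted p = 0.926). The interval for Dlgap1 ran from -0.16 to 0.49 and that for Camk2b from -0.46 to 0.40. When scaled to the pan-neuronal markers, the median of all genes shifted by -0.18, and 5 of the 9 genes remained above 0, with a median of 0.02.

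The genes did not vary as one block among libraries of a group. Dlgap1, Camk2a and Camk2b had the same order within MRL/lpr (replicate 2 highest, replicate 3 lowest) and within MRL/lpr+MSC (replicate 1 highest, replicate 3 lowest). Dlg2 and Shank1 had another order in MRL/lpr, with replicate 2 lowest for both. Dlg4, Dlg2, Shank1 and Shank2 did have the order of Dlgap1 within MRL/lpr+MSC. In MRL/lpr+MSC replicate 1, Dlg2, Shank2 and Shank3 were above every other library of the series, at 0.35, 0.28 and 0.20 log2 units over the MRL/mpj mean, while Dlgap1 was at -0.54 in the same library. This library also had the lowest sum of the 7 oligodendrocyte markers, 4299 CPM against 7550.2 to 8215 CPM in MRL/mpj, and the highest pan-neuronal sum, 6227 CPM. The oligodendrocyte sum was 4903 to 9759 CPM in MRL/lpr and reached 7569 CPM in MRL/lpr+MSC, and its part in the members' levels was not tested. The mean over the 9 genes was -0.38, -0.34 and -0.46 log2 units in the MRL/lpr libraries and -0.07, -0.20 and -0.33 in those of MRL/lpr+MSC.

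**Figure D3:**
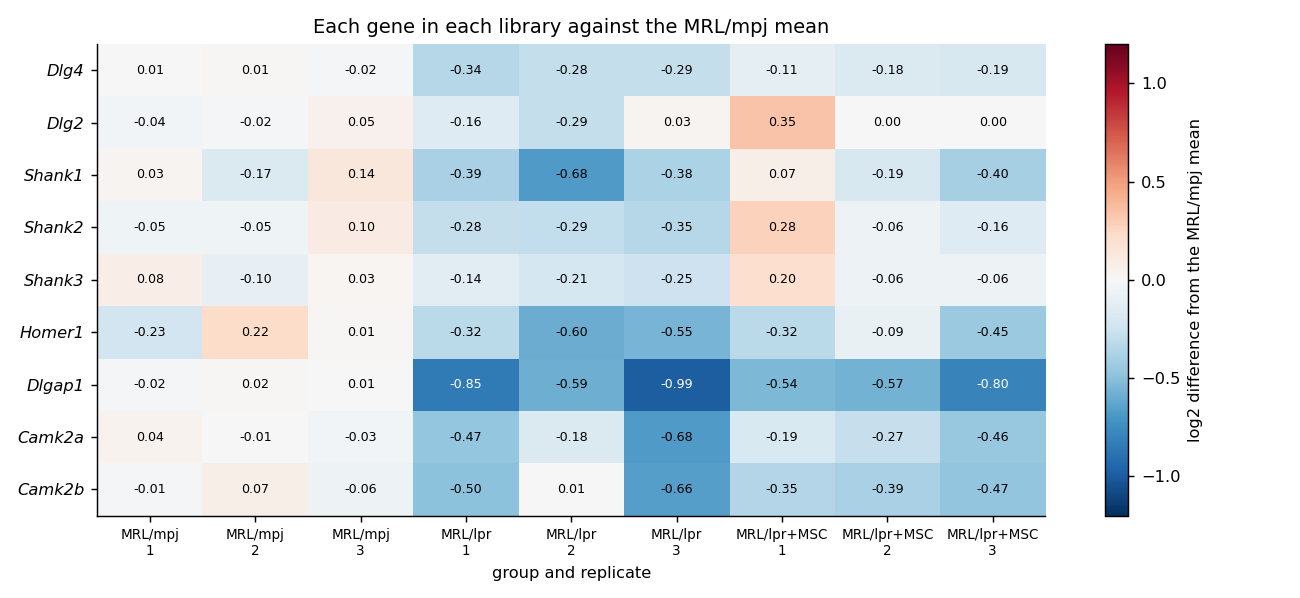
Log2 difference of each gene (rows) in each library (columns, by group and replicate) from the mean of the 3 MRL/mpj libraries, with blue below and red above. Dlgap1 was lowest in 5 of the 6 libraries of the MRL/lpr groups, down to -0.99 in MRL/lpr replicate 3, and Camk2b was at 0.01 in MRL/lpr replicate 2.

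Excitatory neuron markers varied with part of these genes. The summed level of the 5 markers (among them Slc17a7, Neurod6 and Neurod2) was 2179, 2087 and 2465 CPM in MRL/mpj, 1408, 1962 and 798 CPM in MRL/lpr and 2443, 1489 and 1156 CPM in MRL/lpr+MSC, and 0 of the 5 was at 0 in any library. Slc17a7, the vesicular glutamate transporter of these neurons and the most abundant marker, was at 495 CPM in MRL/lpr replicate 3, against 1424 CPM in the lowest MRL/mpj library. Within both MRL/lpr groups the order of the libraries by this sum was that of Dlgap1, Camk2a and Camk2b. In MRL/lpr it was not that of any other member (Dlg4, Dlg2, Shank1, Shank2, Shank3 and Homer1). In MRL/lpr+MSC, Dlg4, Dlg2, Shank1 and Shank2 also had this order, so that 7 of the 9 members followed the sum there. Dlgap1 was at 636 CPM in MRL/lpr+MSC replicate 1, where the sum was within the MRL/mpj range. The 6 inhibitory markers summed to 599.8 to 657 CPM in MRL/mpj and reached 1549 CPM in MRL/lpr replicate 3 and 1246 CPM in MRL/lpr+MSC replicate 3. In MRL/lpr replicate 2 their sum was 409.8 CPM, below every MRL/mpj library. These markers did not move together in MRL/lpr against MRL/mpj. The fold change was above 0 for 3 and below 0 for 3, and 2 fell past the threshold, beside 4.68% of all genes. The mean of Gad1 went from 265 to 368 CPM and that of Pvalb from 46.2 to 23.3 CPM. The 9 dentate and CA markers summed to 1093 to 1283 CPM in MRL/mpj, 740.1 to 935 CPM in MRL/lpr and 790.3 to 962 CPM in MRL/lpr+MSC. The lowest of these sums in MRL/lpr+MSC, 790.3 CPM, was that of replicate 1. The part of these markers in the members' levels was not tested.

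**Figure D4:**
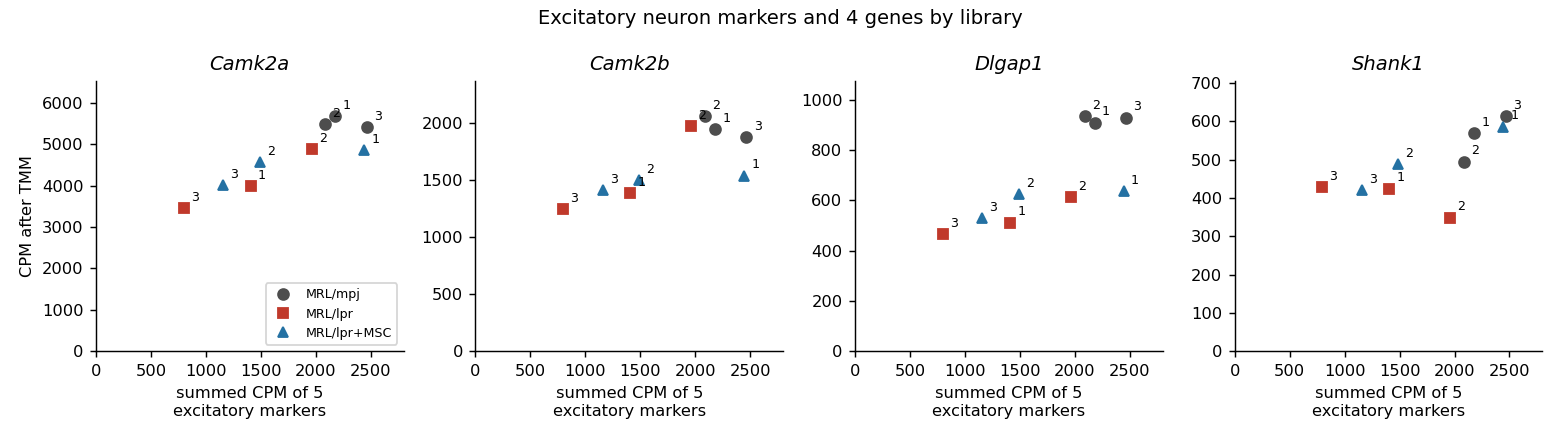
CPM of Camk2a, Camk2b, Dlgap1 and Shank1 (vertical axes, from 0) against the summed CPM of 5 excitatory neuron markers (horizontal axis) in the 9 libraries, numbered by replicate. Dlgap1 in MRL/lpr+MSC replicate 1 was at 636 CPM with a marker sum of 2443, where the MRL/mpj libraries were at 909 to 934 CPM. The 9 dentate and CA markers, not drawn, summed to 790.3 CPM in that library, against 1093 to 1283 CPM in MRL/mpj.

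Other genes of the postsynaptic side, and immediate early genes, were counted from lists chosen by function, with earlier results of these data known. Their counts beside the shares of all genes are description and no test of the lists. Over all genes tested, 4.68% fell and 4.44% rose in MRL/lpr, and 2.56% fell and 2.33% rose in MRL/lpr+MSC. A single call in a list is not read as a result about that list. Of the 10 paralogs of the members, 1 fell in MRL/lpr, Dlgap4 (SAPAP4), from 249 to 186 CPM (log2 fold change -0.41, adjusted p = 0.0221). The next by p were Dlgap3, Dlgap2 and Camk2g, at -0.25, -0.40 and -0.28 (adjusted p from 0.0603 to 0.139). In MRL/lpr+MSC 1 paralog rose, Camk2d (the delta subunit of CaMKII, named after its values were seen), at 80.4, 71.1 and 119 CPM against 48.6, 33.9 and 41.4 CPM in MRL/mpj (log2 fold change 1.10, adjusted p = 0.0404). In MRL/lpr its log2 fold change was 0.97 (adjusted p = 0.179), opposite in sign to those of Camk2a and Camk2b.

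Of 32 other proteins of the density, 9 fell in MRL/lpr and 1 rose, beside 4.68% and 4.44% of all genes. Their median log2 fold change was -0.26. Those that fell included Anks1b (AIDA-1, a PSD-95 partner) at -0.51, Abi1 (a WAVE complex subunit) at -0.47 and Ppp1r9b (spinophilin) at -0.40, with adjusted p from 0.00705 to 0.0177. The gene that rose was Actn2, an alpha-actinin that binds CaMKII and NMDA receptors, at 0.66 (adjusted p = 0.0463). Of the same 32, 3 fell and 1 rose in MRL/lpr+MSC. Of 14 glutamate receptor and auxiliary subunit genes, 6 fell in MRL/lpr and 0 rose, with a median of -0.43. They included the obligatory NMDA receptor subunit Grin1, from 331 to 215 CPM (-0.61, adjusted p = 0.00890), the AMPA receptor subunit Gria3 (-0.57, adjusted p = 0.00755) and the auxiliary subunits Cacng3 (-0.58) and Cacng8 (-0.53). Of the same 14, 2 fell in MRL/lpr+MSC. Summed over the 14 genes, the level was 4353 to 4652 CPM in MRL/mpj, 3343 to 3590 CPM in MRL/lpr and 3392 to 3896 CPM in MRL/lpr+MSC, with both groups of MRL/lpr mice wholly below the controls.

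Of 13 postsynaptic adhesion genes, 2 fell in MRL/lpr, beside 4.68% of all genes. These were Nlgn1 (neuroligin 1) at -0.36 and Lrfn2 at -0.58 (adjusted p = 0.0422 and 0.0489). Epha4 and Nlgn2 were at -0.63 and -0.23 (adjusted p = 0.0737 and 0.0830). Of 6 genes tested of the inhibitory postsynapse, 2 fell, among them the gephyrin gene Gphn (-0.29, adjusted p = 0.0285). Of 12 immediate early genes, 1 fell, the transcription factor Egr3 (-0.38, adjusted p = 0.0465), and Arc, whose product is itself a protein of the density, varied from 57.7 to 182 CPM in MRL/lpr and from 43.3 to 102 CPM in MRL/mpj (adjusted p = 0.305).

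**Figure D5:**
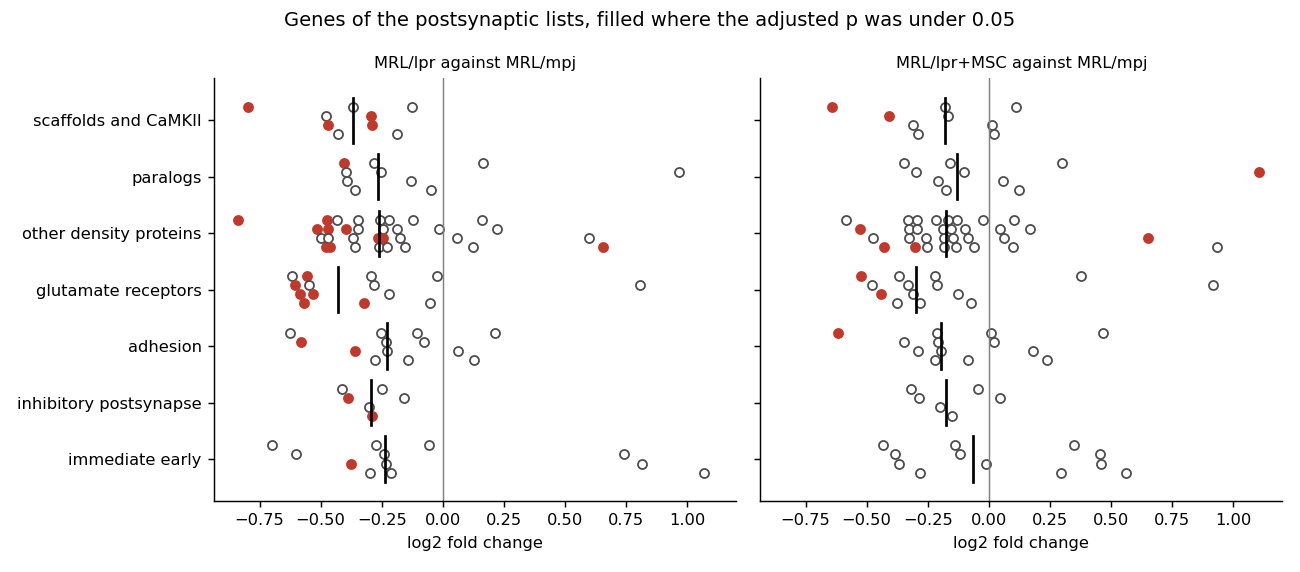
Log2 fold change (horizontal axis) against MRL/mpj of the genes tested in 7 lists, in MRL/lpr (left) and MRL/lpr+MSC (right). The lists are of postsynaptic genes, except that of immediate early genes. Points are filled where the adjusted p was under 0.05, with vertical bars at the medians. On the left the medians lay between -0.43 and -0.23, and the genes that passed were on the negative side except Actn2.

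Among the 10258 other genes that averaged 10 CPM or more, the 5 whose log2 CPM over the 9 libraries most resembled the mean standardised level of the members were Camkv (Pearson r = 0.994, Spearman rho = 1), Scai (0.987 and 0.983), Fam168a (0.983 and 0.983), Spats2 (0.982 and 0.967) and Usp15 (0.982 and 0.817). These values describe the 9 libraries, which share the group differences.

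RefSeq promoters of GRCm38.p6, 250 bases before to 50 after a start, were examined for 6 of the 9 genes, in 12 windows. No window of Shank1, Shank2 or Camk2a was examined, so the motif counts do not cover these genes. Of the 12 windows, 5 are shown because they hold at least 1 of 3 motifs, so they are not typical of the members. Capitals mark TGACG (the core of the cAMP response element, CRE), GGGCGG (the GC box) and CACGTG (an E-box), searched on both strands.

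Homer1, chr13:93303507-93303806, plus strand: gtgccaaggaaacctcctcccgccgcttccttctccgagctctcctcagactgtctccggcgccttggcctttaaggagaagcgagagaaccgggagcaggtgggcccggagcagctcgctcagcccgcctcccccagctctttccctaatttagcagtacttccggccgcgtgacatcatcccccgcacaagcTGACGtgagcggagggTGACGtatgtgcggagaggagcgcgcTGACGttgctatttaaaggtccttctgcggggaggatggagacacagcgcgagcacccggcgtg
Dlg4, chr11:70023732-70024031, plus strand: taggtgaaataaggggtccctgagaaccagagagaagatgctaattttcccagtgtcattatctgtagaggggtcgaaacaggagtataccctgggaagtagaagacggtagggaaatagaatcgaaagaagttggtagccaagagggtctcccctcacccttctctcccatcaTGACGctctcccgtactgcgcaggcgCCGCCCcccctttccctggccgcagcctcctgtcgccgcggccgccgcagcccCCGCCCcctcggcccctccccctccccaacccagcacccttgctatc
Dlgap1, chr17:70561497-70561796, plus strand: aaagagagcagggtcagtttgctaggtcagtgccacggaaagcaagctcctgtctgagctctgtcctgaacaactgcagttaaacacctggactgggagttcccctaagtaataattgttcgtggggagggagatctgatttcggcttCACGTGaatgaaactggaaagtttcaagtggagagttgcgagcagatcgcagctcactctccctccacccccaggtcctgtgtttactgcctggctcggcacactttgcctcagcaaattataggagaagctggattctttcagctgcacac
Camk2b, chr11:6065699-6065998, minus strand: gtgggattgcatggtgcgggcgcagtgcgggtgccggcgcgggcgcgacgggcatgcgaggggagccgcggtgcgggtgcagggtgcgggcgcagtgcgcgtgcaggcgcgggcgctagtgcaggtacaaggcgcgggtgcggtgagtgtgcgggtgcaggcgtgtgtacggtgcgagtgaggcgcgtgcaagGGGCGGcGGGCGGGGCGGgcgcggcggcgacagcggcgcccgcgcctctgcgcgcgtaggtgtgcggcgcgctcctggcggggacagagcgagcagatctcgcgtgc
Shank3, chr15:89499358-89499657, plus strand: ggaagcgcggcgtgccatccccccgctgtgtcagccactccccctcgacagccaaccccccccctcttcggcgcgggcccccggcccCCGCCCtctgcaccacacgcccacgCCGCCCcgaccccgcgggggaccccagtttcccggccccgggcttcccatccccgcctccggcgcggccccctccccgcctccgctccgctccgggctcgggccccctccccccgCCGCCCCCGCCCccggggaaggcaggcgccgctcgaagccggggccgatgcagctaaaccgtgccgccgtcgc

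The Homer1 window held 3 copies of TGACG and that of Dlg4 1 copy beside 2 GC boxes. TGACG was thus in 2 of the 12 windows, and in 20.8% of all 32851 promoters of this length. GC boxes numbered 3 in the Camk2b window, where a pair overlapped, and 4 in the Shank3 window, and occurred in 3 of the 12 windows and in 35.7% of all promoters. The Dlgap1 window held 1 E-box, the only one in the 12 windows, against 7.15% of promoters. The other windows of Homer1, Dlg4 and Dlgap1 held none of the 3 motifs. The full CRE, TGACGTCA, which contains TGACG, was in 1.79% of promoters and in 0 of the 12 windows of the members. The MEF2 motif CTANNNNTAG was in 3.69% of promoters and in 1 window of Dlg2. A match describes the letters of a window and is not a site of binding.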

How the data were processed

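Hippocampal RNA was sequenced in 9 libraries, 3 per group, and groups were taken from the labels. Reads were aligned to mm10 (STAR) and counted per gene (HTSeq) by the authors, while the labels' processing notes name TopHat2 and GRCm38. The deposited matrix held raw counts, and the FPKM values deposited per library were made by the authors from counts and gene length. Whether counting used strand was not given in the sources used here. Every matrix column of values belonged to a labelled library.

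Counts were scaled by TMM, and genes with the equivalent of 10 counts in at least 3 libraries and a total of at least 15 entered a limma voom test on the 6 libraries of each comparison, with robust moderation and p-values adjusted after Benjamini and Hochberg over every gene tested (R 4.3.3, limma 3.58.1, statmod 1.5.0). A quasi-likelihood count test had been planned, but the separator of the matrix kept its unit from being registered as counts, and voom was the stated replacement. The p-values set the difference of the group means against the spread between these samples. A total count gives 3 counts the weight of 0.105 to 0.163 CPM, which covers counting error only. The test was tried on simulated data.

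The members and gene lists were chosen with earlier results of these data known. Named genes were the members, Fas, the 5 genes most like the members, and the most abundant or absent cell type markers. From each postsynaptic list and the immediate early list, up to 4 genes with the lowest p in MRL/lpr were also named. The values of some single genes that the rule selected are left out. Of 190 list entries, 189 were found in GENCODE symbols of GRCm38. Sequences came from RefSeq. Alternatives were median-of-ratios factors, pan-neuronal scaling, no filter on low counts, a single fit of all 9 libraries, a block for the replicate number, correction for gene length and GC content by loess with span 0.4, and leaving out single libraries. limma treat, limma-trend and library quality weights were added after the data were seen.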

Additional observations from a re-analysis of the deposited data

How the results depend on the processing

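Of the 9 members, 9 had a lower fitted level in MRL/lpr than in MRL/mpj under every setting and with each library left out, while the calls moved. The 4 member calls and 1523 gene calls became 0 and 711 with pan-neuronal scaling, 2 and 1861 with the replicate block, 7 and 3631 with the replicate block and the loess correction, and 0 and 102 in the test against a 1.5-fold change. Loess correction alone gave 6 and 3077, library quality weights 5 and 3569, and all 9 libraries in one fit 2 and 1471. With each library left out, members ranged from 0 to 6 and genes from 129 to 2623. For MRL/lpr+MSC against MRL/mpj, the 2 member calls and 792 gene calls became 1 and 397 with pan-neuronal scaling, 1 and 305 with the replicate block, 1 and 384 with the replicate block and loess, 0 and 100 in the test against a 1.5-fold change and 1 and 614 with all 9 libraries, and quality weights gave 2070 genes. With each library left out, members ranged from 0 (without any one MRL/mpj library) to 3 (without MRL/lpr+MSC replicate 1) and genes from 164 to 2571. MRL/lpr+MSC against MRL/lpr gave 0 calls under every setting run.

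Signs turned for some members. Against MRL/mpj, in MRL/lpr+MSC, Shank2 was at -0.056 with pan-neuronal scaling, -0.059 with loess, -0.061 with the replicate block and loess, -0.073 with quality weights, and -0.11 to 0.10 with each library left out. Shank3 was at -0.046, -0.058, -0.058 and -0.034 under the same settings, and -0.056 to 0.064 with each library left out. Against MRL/lpr, with pan-neuronal scaling, Dlg4 was at -0.045, Dlgap1 at -0.012 and Camk2a at -0.053, and Camk2b was at 0.015 with loess, 0.020 with the replicate block and loess, and -0.16 to 0.17 with each library left out. The cause of these changes was not tested. Loess correction shifted the median of all genes in MRL/lpr against MRL/mpj by -0.16.

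No label says that a replicate number marks a shared animal or batch. Deviations of same-numbered libraries correlated at -0.02 to 0.20, -0.03 to 0.36 and -0.21 to 0.33 in the 3 comparisons, and those of other pairs at -0.21 to 0.17, -0.37 to 0.23 and -0.42 to 0.21. Since not every same-numbered pair was above 0.1, the numbers were not treated as pairs, and in each comparison some libraries correlated best with another number. The replicate block took Dlg4 (adjusted p = 0.0558) and Shank2 (0.0678) out of the calls in MRL/lpr and Camk2b (0.0951) in MRL/lpr+MSC. The planned count-model alternatives were not run. Homer1 (SE 0.132) was not called in MRL/lpr at a fold change as large as that of Shank1 (SE 0.112), which was.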
